A study of Mus musculus with 6 samples.

Results

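The 10 genes described here make, load, recover or break down the transmitters that tell spinal neuron classes apart. They were chosen by name, and all 10 were found among the 56805 genes of the deposited count table. The study took motor neurons of mouse embryos at e12.5, from cervical and thoracic levels of the cord. Each region has 3 libraries, and every library came from embryos of the control genotype that had no treatment, so by the labels the groups differ in their place along the cord. How the motor neurons were isolated, and whether a replicate is an embryo, a litter or a pool, is not given in the sources used here, so a p-value here reflects only how far these libraries scatter, which may be technical.

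Motor neurons release acetylcholine. Choline acetyltransferase (Chat) makes it, the vesicular transporter Slc18a3 loads it into vesicles, Slc5a7 takes choline back into the terminal, and acetylcholinesterase (Ache) breaks the transmitter down outside the cell. Inhibitory interneurons use GABA, made by the decarboxylases Gad1 and Gad2, or glycine, which the plasma membrane transporter Slc6a5 supplies, and both are loaded by Slc32a1. Excitatory interneurons load glutamate with Slc17a6 or, in fewer cells, Slc17a8.

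The vesicular transporters mark the transmitter class of a neuron most directly, with GABA and glycine as 1 class. The 250 bases upstream of the first RefSeq start of 1 such gene per class are therefore shown. They run 5′ to 3′ on the gene's strand, in the GRCm38 build of those starts (the counts use mm39). Capitals mark the homeodomain core ATTA read on both strands, the core bound by LIM homeodomain factors of motor neurons and interneurons among others.
Slc18a3: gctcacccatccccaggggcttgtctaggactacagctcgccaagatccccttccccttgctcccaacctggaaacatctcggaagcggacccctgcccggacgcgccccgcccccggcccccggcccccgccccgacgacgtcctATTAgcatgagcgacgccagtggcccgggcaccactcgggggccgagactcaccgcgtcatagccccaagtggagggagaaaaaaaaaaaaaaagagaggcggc
Slc32a1: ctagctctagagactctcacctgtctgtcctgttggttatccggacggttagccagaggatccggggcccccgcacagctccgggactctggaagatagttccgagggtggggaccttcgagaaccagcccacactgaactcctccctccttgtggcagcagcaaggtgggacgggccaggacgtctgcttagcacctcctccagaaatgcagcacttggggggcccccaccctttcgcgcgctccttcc
Slc17a6: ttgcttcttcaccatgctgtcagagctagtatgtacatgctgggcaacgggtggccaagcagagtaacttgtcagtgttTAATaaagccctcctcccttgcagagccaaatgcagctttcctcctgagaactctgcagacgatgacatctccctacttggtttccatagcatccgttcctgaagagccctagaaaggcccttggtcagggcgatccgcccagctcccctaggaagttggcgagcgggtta

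These windows lie at chr14:32464851-32465100 (minus strand), chr2:158610508-158610757 (plus) and chr7:51621580-51621829 (plus). The Slc18a3 and Slc17a6 windows hold 1 ATTA each and the Slc32a1 window none, where 54.9% of 32851 windows of the same length hold at least 1. The proneural E-box CAGCTG, which reads the same on both strands, is in none of the 3 windows and in 13.0% of all. Their GC content was 66.0%, 62.4% and 53.2% against a median of 52.4%. All 10 genes matched a RefSeq start. Such matches describe the letters in these windows and no more.

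In the deposited mm39 coordinates Slc18a3 is a single exon of 2413 bases at chr14:32184395-32186807, inside the span of Chat (chr14:32130160-32187946) on the same strand. The 2 genes share 0 exonic bases in the deposited models, so Slc18a3 lies in an intron of Chat. Reads of unspliced Chat RNA over that stretch would count as Slc18a3. Their part in the Slc18a3 values was not tested. Slc32a1 (chr2:158452687-158457668) shares 697 exonic bases, 24.9% of its length, with the antisense gene Gm14205, and Ache (chr5:137285781-137292728) shares 98 bases with the antisense gene Gm42456. The partners had means of 20.2 and 6.67 counts per library. The strand setting of the counting is not given in the sources used here, so Slc32a1 and Ache are uncertain to that extent. No other gene of the file shares exonic bases with the remaining 8 members.

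Library totals were 32103071 to 33790634 counts, apart from thoracic replicate 1 with 53186131. Levels are CPM, a gene's count scaled to its library's total and by TMM, which corrects for differences in composition (factors 0.989 to 1.01). Genes were tested by edgeR (quasi-likelihood), with p adjusted by Benjamini-Hochberg over all 21972 tested genes. By that test 119 genes (0.542%) differed between the regions at an adjusted p below 0.05, 42 higher in cervical and 77 in thoracic libraries. With the replicate number as a block, which pairs same-numbered libraries of the 2 regions, 432 genes (1.97%) did. All 10 transmitter genes passed the low-count filter and were tested. Log2 fold changes are cervical minus thoracic.

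The 4 genes of GABA and glycine transmission had higher means in cervical libraries and the 4 cholinergic and 2 glutamate genes higher means in thoracic ones. Of the 10 genes, 1 differed over all genes tested, the glycine transporter Slc6a5, which was 1.36-fold higher in cervical libraries, against 0.191% of all genes called in that direction. With the replicate block 4 of 10 differed. Slc6a5 and Gad2 were higher in cervical libraries, against 0.573% of all genes in that direction, and Slc18a3 and Ache were higher in thoracic ones, against 1.39%. At an unadjusted p below 0.05, 5 of 10 passed without the block, against 8.47% of all genes. The 4 inhibitory genes passed it upward in cervical libraries (3.27% of all genes) and Ache in thoracic ones (5.19%). The median log2 fold change was 0.32 for the 4 inhibitory genes, -0.54 for the 4 cholinergic genes and -0.37 for the 2 glutamate genes, beside 0.0083 for all genes tested. The 10 genes share their libraries and, within a class, their cells, so they are not independent of each other.

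**Figure D1:**
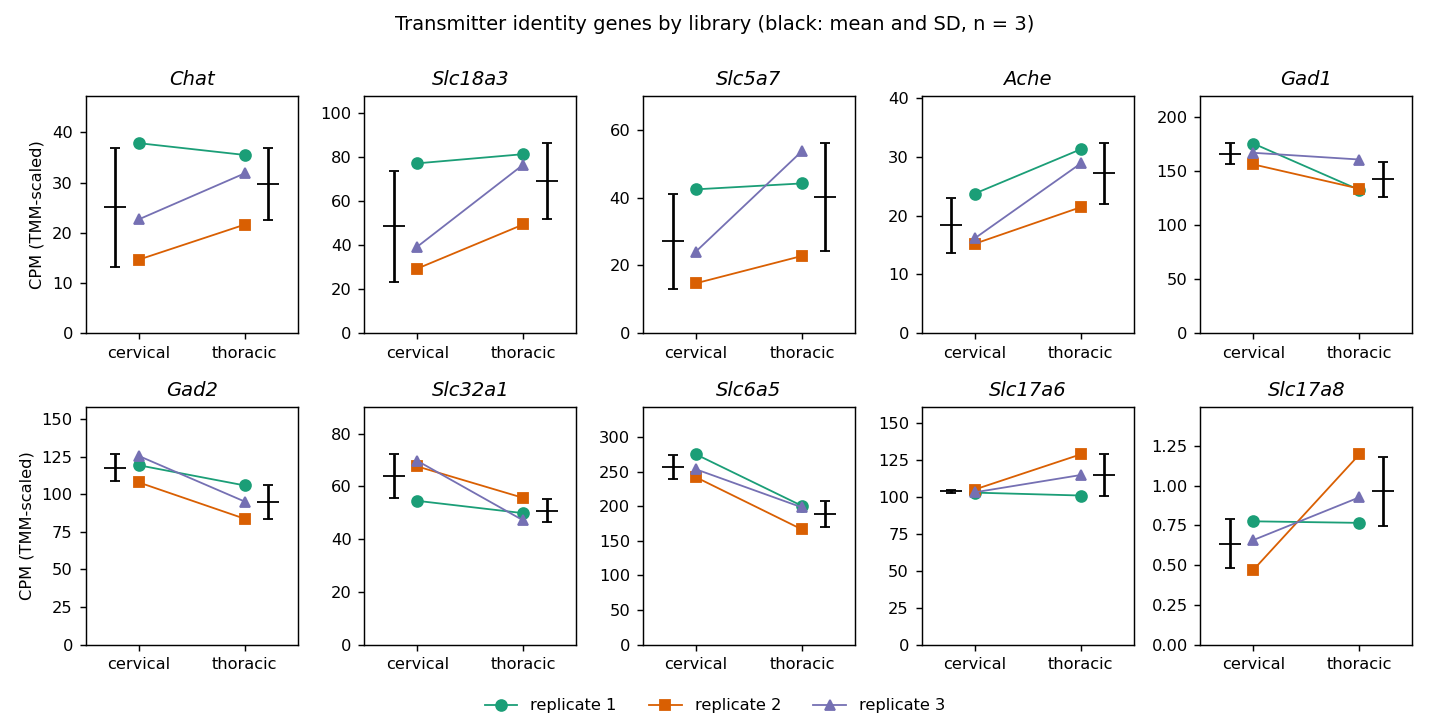
CPM (TMM-scaled) of each transmitter gene in the 3 cervical and 3 thoracic libraries, with lines joining libraries of the same replicate number and black bars for the mean and SD (n = 3). Slc6a5 and Gad2 have no overlap between the regions, and the cholinergic genes are spread more widely within a region than the inhibitory ones.

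The levels per length compare the transcripts of the transmitter genes with each other. The lengths are the exonic lengths of the deposited gene models, so the order of genes depends on those models. In cervical libraries Slc6a5 was the most abundant member, at 35.7 CPM per kb of exon (33.6 to 38.2 over the 3 libraries), with no overlap with the next gene. Slc32a1, Gad1, Slc18a3, Gad2 and Slc17a6 followed between 22.9 and 19.2 CPM per kb, and each overlapped its neighbour in that order. Chat, Slc5a7 and Ache formed a lower group of 5.33 to 3.97 CPM per kb, whose neighbours overlapped too. Slc17a8 was far below all of them at 0.134 CPM per kb.

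Thoracic libraries gave a different leading gene. Slc18a3 came first at 28.6 CPM per kb (20.5 to 33.7), and its range overlapped that of Slc6a5 at 26.2 (23.1 to 27.9). Slc17a6, Gad1, Slc32a1 and Gad2 lay between 21.3 and 16.2 CPM per kb, Slc5a7, Chat and Ache between 7.13 and 5.88, and Slc17a8 at 0.204. In both regions the gap between the upper 6 genes and the cholinergic group of 3 was free of overlap. The labelled motor neuron samples thus held transcripts of the inhibitory genes and of Slc17a6 at levels per length above those of Chat, Slc5a7 and Ache. Slc17a8 lay below every cholinergic gene.

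Among the genes that load vesicles, Slc18a3 took 45.2, 21.8 and 26.9% of the summed CPM per kb in cervical replicates 1, 2 and 3, and 47.9, 31.7 and 45.3% in thoracic replicates 1, 2 and 3. The cholinergic share was above 45% in cervical replicate 1 and thoracic replicates 1 and 3 and below 32% in the other three, and the regions overlapped. Slc32a1 took 27.6, 43.3 and 41.2% in the cervical and 25.3, 30.9 and 24.0% in the thoracic replicates. Slc17a6 and Slc17a8 together took 27.2 to 35.0% and 26.8 to 37.4%. Shares sum to the whole, so a high share of one transporter lowers the others.

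**Figure D2:**
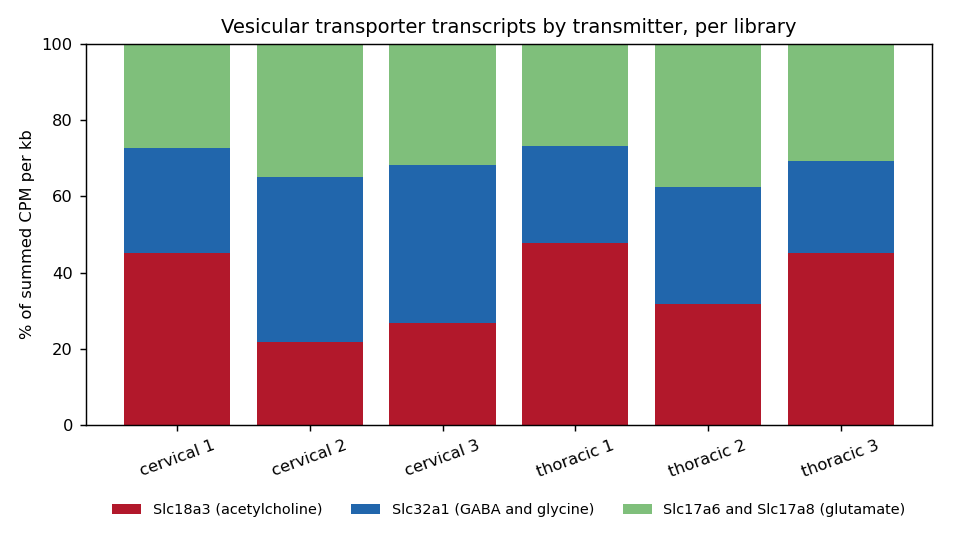
Share of each transmitter's vesicular transporters in their summed CPM per kb, in %, for the 6 libraries. The Slc18a3 share runs from 21.8% in cervical replicate 2 to 47.9% in thoracic replicate 1, and both regions hold a library above 45%.

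Chat, the enzyme that makes acetylcholine, stood at 37.8, 14.6 and 22.7 CPM in cervical replicates 1, 2 and 3 and at 35.5, 21.6 and 31.8 CPM in the thoracic replicates. Replicate 1 was highest and replicate 2 lowest in each region, and the regions overlapped. Cervical libraries averaged 25.0 ± 11.8 CPM and thoracic ones 29.7 ± 7.19 CPM (SD, n = 3), and edgeR gave a log2 fold change of -0.25 (SE 0.28, adjusted p = 0.909). The difference did not pass the test over all genes, with the block (-0.31, SE 0.12, edgeR adjusted p = 0.322) or without it. Its sign turned without cervical replicate 2 (0.03).

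Slc18a3, the vesicular transporter of acetylcholine, stood at 77.2, 29.4 and 39.3 CPM in cervical replicates 1 to 3 and at 81.3, 49.4 and 76.6 CPM in the thoracic ones. Each cervical library lay below the thoracic library of the same number, by 0.08, 0.75 and 0.96 on the log2 scale, while the regions overlapped through cervical replicate 1. The log2 fold change was -0.51 (SE 0.30, edgeR adjusted p = 0.740), and with the block it was -0.59 (SE 0.13, edgeR adjusted p = 0.0303). Without cervical replicate 1 it was -1.01 (edgeR adjusted p = 0.0415 without the block). A given number of cells with less RNA each and fewer cells with the same RNA cannot be told apart in such bulk samples.

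Slc5a7, the choline transporter of cholinergic terminals, stood at 42.5, 14.8 and 24.1 CPM in cervical replicates 1 to 3 and at 44.2, 22.8 and 53.7 CPM in the thoracic ones. It had the widest spread of the 4 genes, 2.88-fold between the highest and lowest cervical and 2.36-fold between the thoracic libraries. All 3 same-numbered pairs had the thoracic library higher, by 0.06, 0.63 and 1.16 on the log2 scale. The log2 fold change of -0.57 (SE 0.35, edgeR adjusted p = 0.770) did not pass, nor did it with the block (-0.61, SE 0.15, edgeR adjusted p = 0.0631).

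Ache, the enzyme that hydrolyses acetylcholine, stood at 23.7, 15.2 and 16.1 CPM in cervical replicates 1 to 3 and at 31.2, 21.4 and 28.8 CPM in the thoracic ones. It varied least within a region among the cholinergic genes, with a coefficient of variation of 25.5% in cervical and 18.9% in thoracic libraries. Only thoracic replicate 2 fell within the cervical range. On the log2 scale the fold change was -0.57 (SE 0.18, edgeR adjusted p = 0.332), and with the block -0.57 (SE 0.11, edgeR adjusted p = 0.0117). DESeq2 called it without the block (adjusted p = 0.0433), and so did edgeR without cervical replicate 1 (-0.80, adjusted p = 0.0480).

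The 3 genes of acetylcholine loading, choline uptake and acetylcholine breakdown were lower in cervical libraries in all 3 same-numbered pairs, as were 16.4% of all tested genes, and Chat was so in 2 pairs. Replicate 1 had the smallest difference for each of the 4 genes. Slc18a3 relative to Chat stood at 2.04, 2.01 and 1.74 (ratio of CPM) in the cervical and at 2.29, 2.29 and 2.41 in the thoracic replicates. That ratio did not overlap between the regions, although both genes on their own did. It was not tested and is 1 of several ratios computed, and its Slc18a3 counts may hold reads of unspliced Chat RNA. Slc5a7 relative to Chat overlapped, at 1.01 to 1.12 in cervical and 1.06 to 1.69 in thoracic libraries.

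**Figure D3:**
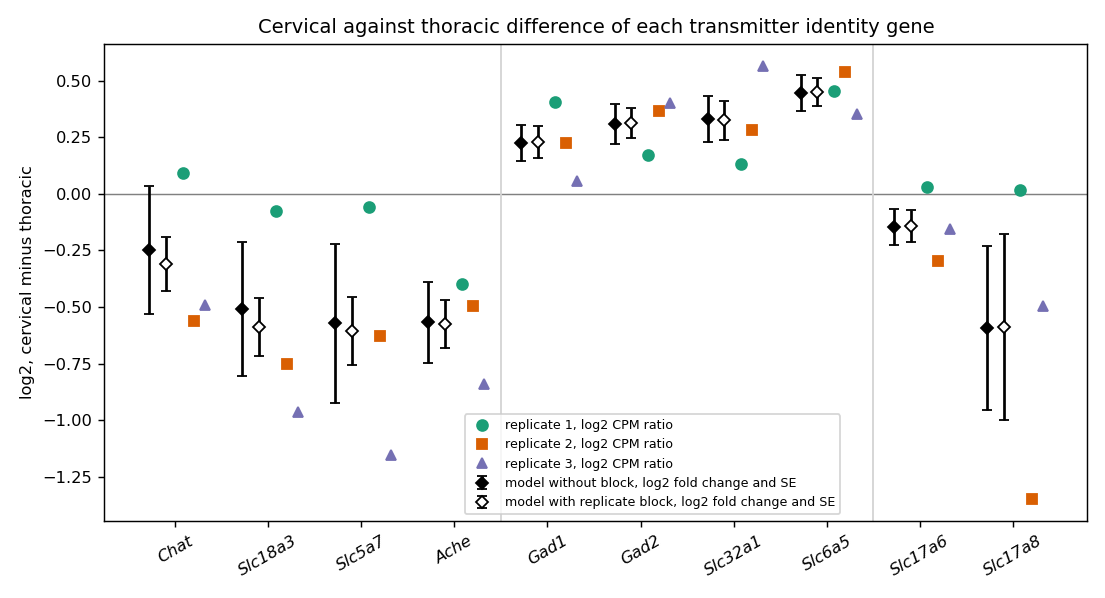
Cervical minus thoracic difference of each transmitter gene on the log2 scale, as the fitted log2 fold change with its SE (filled without, open with the replicate block) and as the log2 CPM ratio of each same-numbered pair. All pairs of the 4 inhibitory genes lie above 0, all pairs of Slc18a3, Slc5a7 and Ache lie below it, and replicate 1 lies nearest to 0 among the cholinergic genes.

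Motor neuron markers moved with the cholinergic genes from library to library. The 8 markers, which include the transcription factor genes Mnx1, Isl1 and Lhx3, were all detected in every library. They summed to 786, 426 and 571 CPM in cervical replicates 1 to 3 and to 793, 538 and 716 CPM in the thoracic ones, and the 4 cholinergic genes to 181, 74.0 and 102 CPM and to 192, 115 and 191 CPM. Both sums were lowest in cervical replicate 2 and highest in thoracic replicate 1. Single markers went both ways, with 3 positive and 5 negative log2 fold changes. Mnx1, the most abundant, had means of 186 ± 47.3 cervical and 166 ± 30.2 thoracic CPM, and Isl2, the least abundant, 11.3 ± 3.73 and 14.5 ± 3.47 CPM. No marker differed without the block, and Isl1, Slit3 and Ret were higher in thoracic libraries with it (edgeR adjusted p of 0.00105, 0.00165 and 0.00498), as were 1.39% of all tested genes.

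Divided by the summed motor neuron markers, Chat stood at 0.0481, 0.0344 and 0.0397 in the cervical and at 0.0448, 0.0402 and 0.0444 in the thoracic replicates, with overlap. Ache on the same scale stood at 0.0302, 0.0357 and 0.0282 against 0.0394, 0.0398 and 0.0403, with no overlap. Slc18a3 and Slc5a7 overlapped on it, at 0.0689 to 0.0981 against 0.0919 to 0.107 and at 0.0347 to 0.0540 against 0.0424 to 0.0750. These ratios use measured markers as a yardstick and were not tested. Whether the markers came only from motor neurons in these samples was not tested. The part of motor neuron content in the cholinergic differences was not tested either.

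Other cells can carry some of these transcripts. Erythroid and muscle cells also make Ache. The 8 erythroid genes summed to 9.54 to 18.7 CPM in cervical and 7.18 to 10.6 CPM in thoracic libraries, the opposite order of means to Ache and with overlap, and 6 of the 8 had a mean below 1 CPM. The 7 muscle genes summed to 9.29 to 14.0 and 13.3 to 17.4 CPM, with means of 11.6 and 15.6 CPM, the same order as Ache. Most of it was Ttn (9.96 ± 1.54 cervical and 13.4 ± 1.54 thoracic CPM, without overlap), a gene of 117334 exonic bases. Higher in thoracic libraries without overlap were 7.5% of all tested genes. Myod1, which defines muscle precursors, was at 0 in the cervical libraries and at most 0.154 CPM in thoracic ones. The part of erythroid and muscle cells in the Ache values was not tested.

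Slc6a5, the neuronal glycine transporter, stood at 275, 242 and 254 CPM in cervical replicates 1, 2 and 3 and at 201, 167 and 199 CPM in the thoracic replicates. Every cervical library lay above every thoracic one, and the cervical library was higher by 0.46, 0.54 and 0.35 on the log2 scale in the same-numbered pairs. The means were 257 ± 16.8 and 189 ± 19.1 CPM (SD, n = 3; log2 fold change 0.45, SE 0.08, edgeR adjusted p = 0.0417). DESeq2 (adjusted p = 0.000124), limma-voom (adjusted p = 0.0421) and the blocked edgeR fit (adjusted p = 0.00136) called it as well. Leaving out any 1 of the 6 libraries ended the call, with log2 fold changes of 0.37 to 0.49 and edgeR adjusted p of 0.0528 to 0.167.

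Gad2, the GABA-making enzyme found mainly at synaptic terminals, stood at 119, 108 and 126 CPM in cervical replicates 1 to 3 and at 106, 83.7 and 95.2 CPM in the thoracic ones. It was the other member without overlap between the regions, as were 13.7% of all tested genes (6.25% higher in cervical and 7.5% in thoracic libraries), but only narrowly, since cervical replicate 2 was just above thoracic replicate 1. The fitted difference was 0.31 on the log2 scale (SE 0.09, edgeR adjusted p = 0.243), and with the block 0.31 (SE 0.07, edgeR adjusted p = 0.0280).

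Gad1, the second GABA-making enzyme, which is spread through the cell, stood at 176, 156 and 167 CPM in cervical replicates 1 to 3 and at 133, 134 and 161 CPM in the thoracic ones. Thoracic replicate 3 lay within the cervical range and accounts for the overlap. The log2 fold change of 0.22 (SE 0.08) passed neither without nor with the block (edgeR adjusted p of 0.427 and 0.161). Without thoracic replicate 3 it was 0.32 (edgeR adjusted p = 0.141).

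Slc32a1, the vesicular transporter that GABA and glycine neurons share, stood at 54.6, 67.6 and 69.8 CPM in cervical replicates 1 to 3 and at 49.9, 55.7 and 47.1 CPM in the thoracic ones. Cervical replicate 1, which was the highest cervical library for Slc6a5 and Gad1, was the lowest one for Slc32a1 and lay just below thoracic replicate 2. The log2 fold change of 0.33 (SE 0.10) passed neither without nor with the block (edgeR adjusted p of 0.297 and 0.0786), and without cervical replicate 1 it was 0.43 (edgeR adjusted p = 0.0555).

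All 4 inhibitory genes were higher in the cervical library of every same-numbered pair, as were 15% of all tested genes. Together they summed to 625, 574 and 616 CPM in the cervical and to 489, 440 and 502 CPM in the thoracic replicates, with no overlap. Their coefficients of variation were 5.82 to 12.9% in cervical libraries, below the 25.5 to 52.0% of the cholinergic genes. The mix of inhibitory genes differed less clearly than their level. Slc6a5 relative to Gad1 stood at 1.52 to 1.57 (ratio of CPM) in cervical and 1.23 to 1.51 in thoracic libraries, without overlap by a narrow margin. Relative to Gad2 it overlapped, at 2.02 to 2.31 and 1.90 to 2.09, as it did relative to Slc32a1, at 3.58 to 5.05 and 2.99 to 4.22. Gad2 relative to Gad1 overlapped as well, at 0.679 to 0.751 and 0.591 to 0.798. None of these ratios was tested.

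The summed markers of inhibitory interneurons had the same order as the summed genes of their transmitters, while single markers went both ways. Of 12 tested markers, 8 had a positive and 4 a negative log2 fold change. In all 3 same-numbered pairs 5 had the cervical library higher (15% of all tested genes) and 4 the thoracic one (16.4%). The 13 markers summed to 1555 to 1720 CPM in cervical and 1293 to 1367 CPM in thoracic libraries. Pax2, Lhx1 and Foxd3, transcription factor genes of ventral inhibitory interneurons among others, were higher in cervical libraries (edgeR adjusted p of 0.0462, 0.0256 and 0.0207). Gata3, a factor of V2b and cerebrospinal fluid contacting neurons, was higher in thoracic ones (edgeR adjusted p = 0.0249, log2 fold change -0.85), as was Pkd2l1, a channel gene of the latter GABA-releasing cells, at 1.02 ± 0.520 against 5.30 ± 1.98 CPM (edgeR adjusted p = 0.0249). Each of these 5 calls was lost in at least 1 of 6 fits without a given library, with edgeR adjusted p of up to 0.154 (Pax2), 0.146 (Lhx1), 0.145 (Foxd3), 0.119 (Gata3) and 0.128 (Pkd2l1), and Pax2 in all 6. Ptf1a, a factor of dorsal inhibitory precursors, was near 0, at 0.0309 to 0.248 CPM.

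Set against the summed inhibitory markers, none of the 4 inhibitory genes separated the regions. Slc6a5 stood at 0.160, 0.156 and 0.153 in the cervical replicates and at 0.147, 0.123 and 0.154 in the thoracic ones. Gad1 stood at 0.101 to 0.102 against 0.0971 to 0.124, Gad2 at 0.0694 to 0.0757 against 0.0617 to 0.0775 and Slc32a1 at 0.0317 to 0.0435 against 0.0364 to 0.0410. Abundant markers weigh most in that sum. Pax2, Lhx1 and Foxd3, called higher in cervical libraries, had means of 488.6, 309.1 and 204.4 CPM over all libraries. Gata3, called higher in thoracic ones, had 16.15 CPM. Whether these markers, Lhx1 included, came only from inhibitory interneurons in these motor neuron samples was not tested. The part of interneuron content in the inhibitory differences was not tested either.

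**Figure D4:**
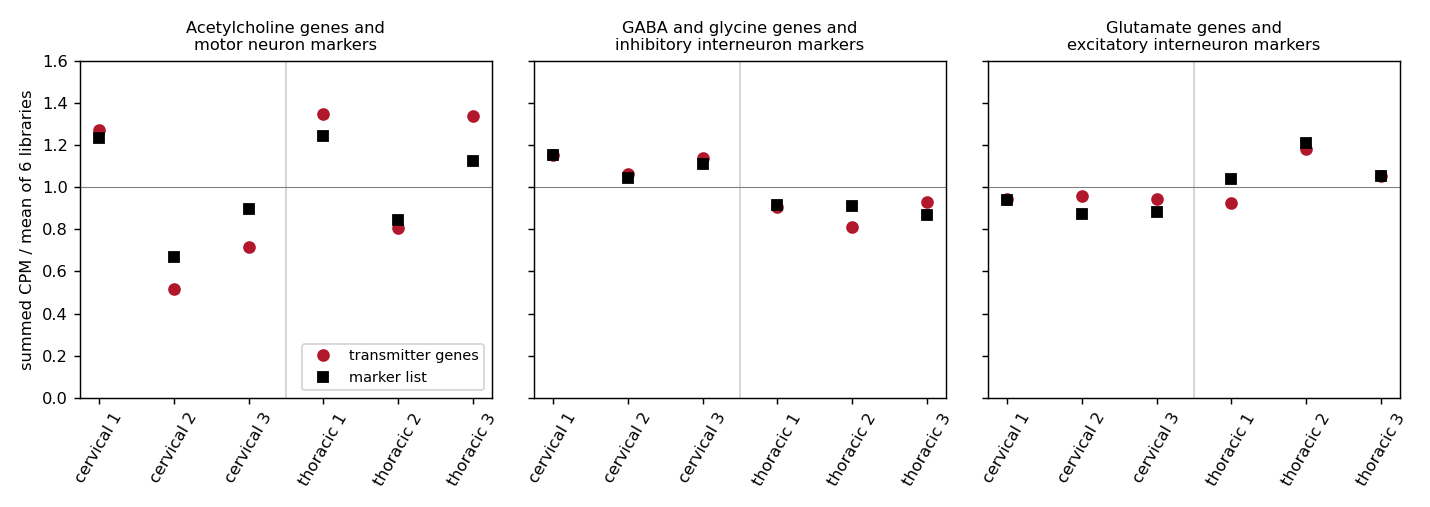
Summed CPM of each transmitter's genes (circles) and of the marker list of the neurons that use it (squares) in the 6 libraries, each divided by its own mean over the libraries. The cholinergic genes and motor neuron markers are both lowest in cervical replicate 2, the inhibitory pair is higher in the 3 cervical libraries, and the excitatory markers are higher in the 3 thoracic ones.

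Slc17a6, the main vesicular glutamate transporter of the spinal cord, stood at 103, 105 and 103 CPM in cervical replicates 1 to 3 and at 101, 129 and 115 CPM in the thoracic ones. The cervical libraries were nearly equal, with a coefficient of variation of 1.11%, and thoracic replicate 1 lay below them while the other two lay above. The log2 fold change of -0.15 (SE 0.08) passed neither without nor with the block (edgeR adjusted p of 0.708 and 0.532). Slc17a8, the transporter of a smaller set of neurons, had only 16 to 41 counts per library, or 0.469 to 0.775 CPM in cervical and 0.765 to 1.20 CPM in thoracic libraries. Its log2 fold change of -0.59 (SE 0.36, edgeR adjusted p = 0.768) did not pass at this depth.

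Excitatory interneuron markers were higher in sum in thoracic libraries, at 217 to 234 CPM in cervical and 259 to 302 CPM in thoracic ones. Of the 12, Sim1 of V3 interneurons (5.78 ± 3.11 against 27.5 ± 8.51 CPM, edgeR adjusted p = 0.0192) and Lmx1b of dorsal excitatory interneurons (7.47 ± 0.924 against 15.7 ± 2.17 CPM, edgeR adjusted p = 0.0143) were called. Both were also lost in at least 1 such fit, with edgeR adjusted p of up to 0.0876 and 0.0545. Over all genes 0.35% were called higher in thoracic libraries. With the block Lhx9 was called too, at 12.7 ± 3.03 against 21.7 ± 1.30 CPM (edgeR adjusted p = 0.00656, and 0.0611 without it). Blocked calls in that direction covered 1.39% of all tested genes. Of the 12, 10 had a negative and 2 a positive log2 fold change, and the 2 were the most and the least abundant markers. Pou4f1 had means of 57.3 cervical and 49.7 thoracic CPM with overlap (edgeR adjusted p = 0.627), and Lhx2 had 4.42 and 1.19 CPM without overlap (log2 fold change 1.82, edgeR adjusted p = 0.246). Slc17a6 relative to the summed excitatory markers stood at 0.440 to 0.484 in cervical and 0.391 to 0.438 in thoracic libraries. That ratio had no overlap and the opposite order to Slc17a6 itself, and it was not tested. Its denominator holds Sim1, Lmx1b and Lhx9, the markers called higher in thoracic libraries without or with the block. Neurons of the sensory ganglia also use Slc17a6, and 5 of their markers summed to 15.3 to 33.2 and 10.9 to 18.9 CPM, with Prdm12, which spinal neurons express too, the most abundant. The part of both in the Slc17a6 values was not tested.

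The inhibitory and the main excitatory vesicular transporter were also set against each other. Slc32a1 relative to Slc17a6 stood at 0.530, 0.644 and 0.676 (ratio of CPM) in the cervical replicates and at 0.494, 0.432 and 0.410 in the thoracic ones. The regions did not overlap on this ratio, although each gene alone did, and cervical replicate 1 and thoracic replicate 1 were the closest. The ratio was not tested, it is 1 of several computed, and neither gene passed the test.

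Of 52 other genes of transmitter metabolism, 42 were tested and 1 differed, Nos1, the neuronal nitric oxide synthase that preganglionic motor neurons use beside acetylcholine. Nos1 stood at 6.88, 10.8 and 7.54 CPM in the cervical and at 25.9, 24.9 and 60.4 CPM in the thoracic replicates, with no overlap. Of all tested genes, 7.5% were higher in thoracic libraries without overlap. Calls in that direction covered 0.35% of all tested genes, and 1.39% with the block. The log2 fold change of Nos1 was -2.14 (SE 0.32, edgeR adjusted p = 0.0207, with the block 0.000505). Limma-voom did not call it (adjusted p = 0.0614), and edgeR lost the call without cervical replicate 3, with adjusted p of 0.0115 to 0.109 over the 6 fits that each left out a library. The other 13 genes of monoamine and nitric oxide transmission held Slc18a2, the vesicular monoamine transporter, at 13.2 ± 0.362 and 13.1 ± 3.19 CPM, Th, the enzyme of dopamine synthesis, at 2.19 ± 0.388 and 1.14 ± 0.541 CPM (edgeR adjusted p = 0.474), and Tph2 of serotonin synthesis at 0.234 and 0.173 CPM. Only 8 of the 14 passed the filter.

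None of the 10 tested genes of choline and acetylcholine metabolism differed, with 3 positive and 7 negative log2 fold changes and a median of -0.06. The most abundant was Acly, which makes acetyl-CoA, at 638 ± 60.5 and 692 ± 24.8 CPM. Among 12 tested genes of GABA and glycine metabolism none differed and the median was -0.03, led by the amino acid transporter Slc38a2 at 557 ± 31.6 and 555 ± 21.1 CPM. Of 12 tested glutamate genes none differed and the median was 0.04. The glial and neuronal uptake gene Slc1a2 led them at 408 ± 22.5 and 415 ± 7.84 CPM, and Slc17a7, the vesicular transporter of cortical glutamate neurons, was at 0.634 ± 0.372 and 0.288 ± 0.117 CPM.

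The genes closest in pattern to 3 members were found by the root mean square difference of mean-centred log2(CPM + 1) over the 6 libraries, among 10017 genes with a mean of at least 10 CPM. For Chat, whose own SD on that scale was 0.459, they were Bmp7 (0.103), a secreted BMP ligand, Nrg1 (0.133), the neuregulin that motor neurons supply to Schwann cells and muscle, and Ecel1 (0.157), a peptidase of motor neurons. For Slc32a1 (SD 0.206) they were Klhl14 (0.0490), the respiratory chain gene Cox5a (0.0518) and the 7SK RNA gene Rn7sk (0.0523). For Slc17a6 (SD 0.123) they were Cip2a (0.0394), C1d (0.0402) and the teneurin Tenm3 (0.0417). All share the same 6 libraries, and 6 points place many genes close to any pattern of small range.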

How the data were processed

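RNA of motor neurons from 2 cord regions at e12.5 was sequenced in 6 ribosomal RNA-depleted libraries, per the labels' protocols. The authors deposited whole-number counts of reads per gene. They list FastQC 0.11.9, STAR 2.7.5b, featureCounts 2.0.1 and mm39, per the submitters' processing notes. Which annotation release was used is not given in the sources used here.

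Genes were kept by edgeR 4.0.16's default filter (minimum count 10), which removed 34833 genes holding 0.117% of the counts, and tested over all 21972 kept genes (TMM, quasi-likelihood, prior count 0.125, R 4.3.3). Each SE is |log2 fold change| over the root of the F statistic. DESeq2 1.42.0 and limma 3.58.1 (voom) were alternatives, with other scaling, filters, the replicate block and each library left out. The test was tried on simulated counts. Members, gene lists and the rule for naming genes (all members, called or extreme members of each list, nearest patterns, exon-sharing genes) were chosen with earlier results of these data known.

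Replicate numbers come from the titles. After subtracting region means, same-numbered libraries had correlations of 0.163, 0.160 and 0.195, each above 0.1, and at most at 0.008 between others, so the numbers were taken as pairs. No pairing is stated in the labels. The correlations use the same counts as the blocked test, so they are no independent evidence for it. Within a region, chi-square per degree of freedom between libraries was 10.1 to 16.2, above the 1 of counting noise alone, so none was taken as a second deposit of another; this does not show that they are separate biological samples. Of the marker genes, Drgx was not found by that symbol. A few marker genes are not reported here.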

Additional observations from a re-analysis of the deposited data

How the results depend on the processing

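The 1 transmitter gene called in the main test became 4 with the replicate block, 2 with DESeq2 and 6 with no low-count filter, and 0 to 2 when 1 library was left out. Without cervical replicate 1 the 2 were Slc18a3 and Ache, both higher in thoracic libraries, and no other library left out gave a call. The cause was not tested. Of all genes, 119 became 432 with the block, 408 with DESeq2, 747 with no filter and 9 to 159 when 1 library was left out, the lowest without cervical replicate 3. The 1 call among other transmitter metabolism genes became 0 with limma-voom, 2 with no filter and 0 to 1 when 1 library was left out. Chat's log2 fold change ran from -0.67 to 0.0258 when 1 library was left out, and it changed sign without cervical replicate 2. No other member changed sign under any alternative. Slc17a8 has no value at a mean of at least 1 CPM, since that filter removed it. The pairing of replicate numbers changed no other member's call than those of Slc18a3, Ache and Gad2. Slc17a8 is limited by its depth of 16 to 41 counts.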
